A study of Mus musculus with 24 samples.

Results

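The microRNA (miR) content of the normal hippocampus was described on postnatal day 9 (P9), from 3 untreated male C57BL/6 mouse pups. The members are the 722 probe sets for mature miRs among the 1412 mouse probe sets of the deposited table, the other 690 being probe sets for miR hairpins. They were measured on 3 Affymetrix microRNA 2.0 arrays of the 9 in the series, 1 array per pup, here called arrays 16, 17 and 18 after the numbers in their labels. The untreated pups received 0 mg/kg morphine and neither maternal separation nor apnea, and each sample held the left and right hippocampus of 1 pup. The 6 treated arrays, used below only for their ranking and spread, came from P9 males given morphine at 2 mg/kg (MS2, 3 arrays) or 5 mg/kg (MS5, 3 arrays) with maternal separation and apnea. Treatment levels were not compared with controls.

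A miR is a short RNA that guides an Argonaute protein to messenger RNAs, mostly by pairing of its seed, the bases from position 2 to 8, and thereby lowers translation and mRNA stability. It is cut from a hairpin precursor, either arm of which can give a mature miR, and many hairpins are transcribed together in clusters or lie in introns of host genes. In brain, miR-124 is the best known neuronal miR, the let-7 family accumulates as neural cells mature, and the miR-17 family is linked to dividing progenitors. A whole hippocampus holds neurons, glia, vessels, blood and, depending on the dissection, ependyma, choroid plexus and meninges, and in such bulk tissue fewer cells of a type and less RNA per cell cannot be told apart.

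The families that carried much of the highest signal are shown first, with the mature mouse sequence of each member from RefSeq (GRCm38.p6), 5′ to 3′ and with the seed in capitals. The array's older names often do not say which arm of the hairpin is meant. For those names the arm generally regarded as the main one was taken, so the match of such a name to its sequence is an assumption. The let-7 family is shown because its 9 members share a seed and yet spanned most of the scale.
let-7a: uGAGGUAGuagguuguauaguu
let-7b: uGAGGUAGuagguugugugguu
let-7c: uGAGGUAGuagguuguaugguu
let-7d: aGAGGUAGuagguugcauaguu
let-7e: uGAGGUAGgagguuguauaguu
let-7f: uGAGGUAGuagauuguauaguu
let-7g: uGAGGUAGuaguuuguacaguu
let-7i: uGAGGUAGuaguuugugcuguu
miR-98: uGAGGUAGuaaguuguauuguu

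The next families are shown because their members are near copies of each other, in most cases with both among the highest signals. They are the miR-103 pair, the miR-125 pair and the miR-99 group, which lie in clusters with let-7 genes, the miR-181 group and the miR-26 pair.
miR-103: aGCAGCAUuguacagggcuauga
miR-107: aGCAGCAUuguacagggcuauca
miR-125b-5p: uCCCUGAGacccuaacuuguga
miR-125a-5p: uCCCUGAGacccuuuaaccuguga
miR-99a: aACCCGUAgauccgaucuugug
miR-99b: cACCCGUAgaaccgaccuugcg
miR-100: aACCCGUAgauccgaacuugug
miR-181a: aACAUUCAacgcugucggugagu
miR-181b: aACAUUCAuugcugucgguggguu
miR-181c: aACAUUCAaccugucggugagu
miR-26a: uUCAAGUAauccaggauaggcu
miR-26b: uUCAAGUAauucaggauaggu

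The last set holds 4 members of the miR-34/449 family, a family with 5 of the 15 largest SDs described further on, and miR-204 with its relative miR-211, which are set beside that family there. miR-127, miR-433 and miR-541 are added as members of the imprinted Dlk1-Dio3 cluster on chromosome 12.
miR-34a: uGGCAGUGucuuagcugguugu
miR-34b-5p: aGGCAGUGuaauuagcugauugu
miR-449a: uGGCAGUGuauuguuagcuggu
miR-449c: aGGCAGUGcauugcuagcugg
miR-204: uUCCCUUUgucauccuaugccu
miR-211: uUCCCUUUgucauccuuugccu
miR-127: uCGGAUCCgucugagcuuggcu
miR-433: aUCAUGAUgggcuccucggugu
miR-541: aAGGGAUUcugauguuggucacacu

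Most probe sets stood at the low end of the scale and a minority rose far above it. All levels are log2 values of the deposited table, and a difference of 1 is a 2-fold difference. The mean of the 3 arrays had a median of 4.63 over the 722 probe sets, with 25% of them at or below 4.08, 25% above 7.30 and a maximum of 14.65. Since the table holds no detection calls, the low end was marked with 37 miRs known from liver, skin, heart, pancreas, embryonic stem cells or testis. These had a median of 4.06, and the highest of them was miR-217, a miR known from pancreas, at 5.143 ± 0.012 (SD, n = 3). In all, 305 of the 722 probe sets (42.2%) had a mean above that of miR-217, and 295 were above it on each of the 3 arrays. Only 69 probe sets (9.6%) reached 10 and 18 (2.5%) reached 12. The 690 hairpin probe sets had a median of 4.09, with 25 above the same limit.

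**Figure D1:**
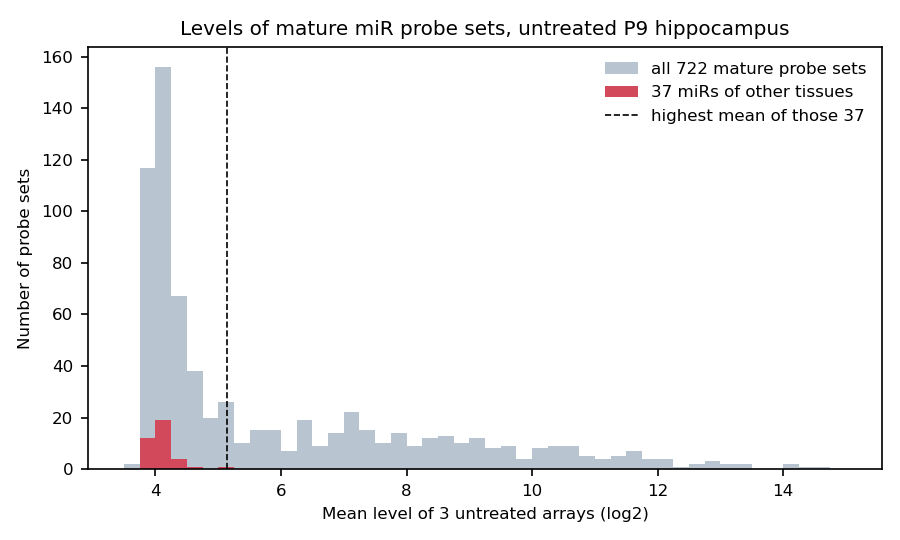
Number of mature miR probe sets (vertical axis) by mean level on the 3 untreated arrays (horizontal axis, log2, bins of 0.25), for all 722 probe sets (grey) and for 37 miRs of other tissues (red), with the highest mean of those 37 as a dashed line at 5.143. The red miRs lie in the peak near 4, and 305 probe sets lie to the right of the line.

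A probe set's signal depends on how well its probes bind as well as on how much miR is present. The order that follows is therefore an order of signal and not of molecule number. The highest signal was that of miR-709, at 14.74, 14.57 and 14.63 on arrays 16, 17 and 18, so that it was the highest of all 722 on every array. miR-124, the neuronal miR, followed at 14.36, 14.28 and 14.17. let-7c stood at 14.09, 14.27 and 14.31 and let-7b at 14.18, 14.17 and 14.27. These 3 probe sets overlapped and changed places from array to array, whereas miR-709 was above them throughout and all 4 were above the fifth, miR-103, whose mean was 13.38 ± 0.15 (SD, n = 3).

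The rest of the highest 30 formed a nearly continuous slope. miR-125b-5p had a mean of 13.27, miR-138, a miR of dendritic spines, 13.19, let-7d 13.02, miR-107 12.88 and let-7e 12.82. miR-181a, miR-26a, miR-127, miR-24, miR-191 and let-7a followed between 12.76 and 12.07. The lower part, from miR-99b at 12.06 to miR-93 at 11.38, held miR-487b, miR-16, miR-541, miR-23b, miR-433, miR-99a, miR-181b, miR-342-3p, miR-125a-5p, miR-149, miR-2861 and miR-17. Neighbours in this order were mostly indistinguishable. Of the 29 neighbouring pairs among the highest 30, only 5 had arrays that did not overlap, namely miR-709 over miR-124, let-7b over miR-103, miR-24 over miR-191, miR-191 over let-7a and miR-17 over miR-93. The median gap between neighbours was 0.06, and 11 of the 29 pairs had the same order on all 3 arrays.

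**Figure D2:**
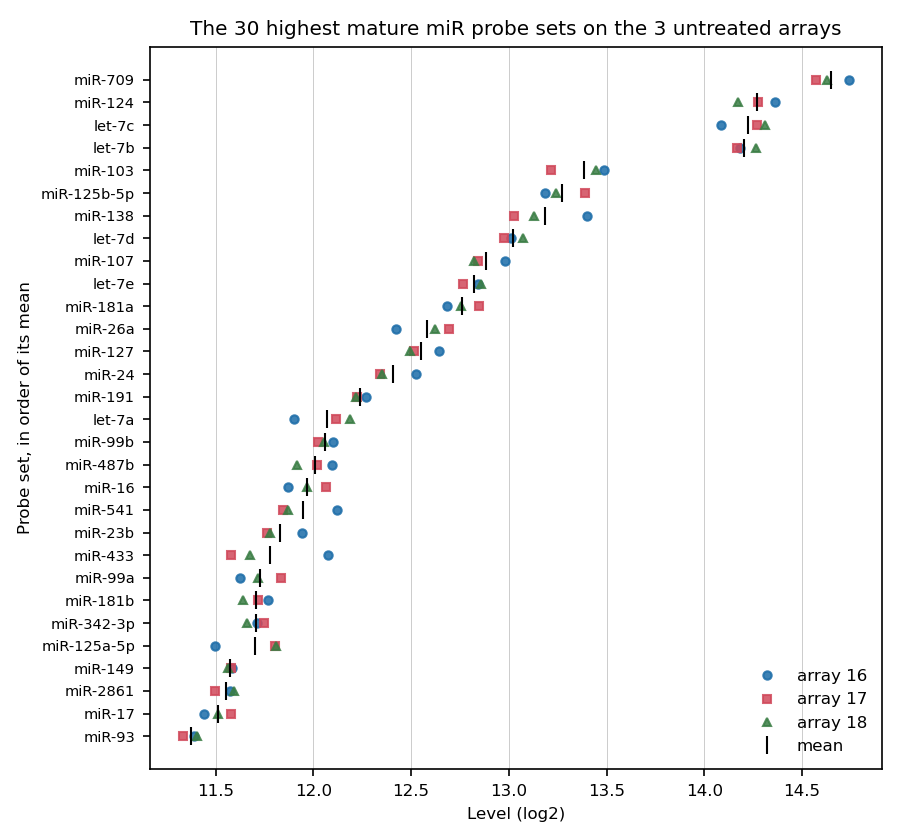
Level (log2, horizontal axis) of the 30 mature miR probe sets with the highest mean, 1 row each, with a point for each untreated array and a black bar for the mean. miR-709 is highest on every array, a gap of 0.82 separates let-7b from miR-103, and further down the points of neighbouring rows overlap.

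Within the let-7 family, whose members share the seed printed above, the signals fell over more than 8 units of log2. let-7c and let-7b led at 14.22 ± 0.12 and 14.21 ± 0.05 (SD, n = 3) and differ from each other at 1 of 22 positions. let-7d at 13.02, let-7e at 12.82, let-7a at 12.07 and let-7i at 10.61 came next. let-7g at 8.69 ± 0.15 and let-7f at 8.56 ± 0.26 overlapped, and miR-98 was last at 5.94 ± 0.10. All 9 were above the low end, and 6 were among the highest 50 probe sets. let-7a and let-7f differ at 1 of 22 positions but stood 3.51 apart, with no overlap of their arrays.

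The let-7 members poorest in G and C were among the lowest. G and C make up 45.5% of let-7b and 40.9% of let-7c, let-7d, let-7e and let-7i, but 36.4% of let-7a and let-7g and 31.8% of let-7f and miR-98, the lowest 2 of the family. The order was not strict, since let-7a was above let-7i. The miR-26 pair showed the same contrast, with miR-26a (40.9% G and C) at 12.42, 12.69 and 12.62 and miR-26b (33.3%) at a mean of 4.55, below miR-217, although they differ at only 2 of the 21 positions compared. Over the whole array, a G and C share could be had for 586 of 722 probe sets (81.2%). For 383 of these the exact name was not found, and the mean over the arms of the hairpin was taken, also at some names that give an arm. miR-140 and miR-140-star, for example, thus got the same share. The median level was 4.14 for the 106 probe sets with a share up to 40%, 4.53 for 256 with over 40 to 50%, 5.57 for 138 with over 50 to 60% and 6.90 for 86 above 60%. At the far end, G and C make up 94.7% of miR-2861, which ranked 28. Above the low end lay 21.7%, 39.8%, 55.1% and 61.6% of the 4 classes. Across these probe sets, which share the arrays and are no independent replicates, Spearman's rho of level and G and C share was 0.31. Whether the probes' binding or the miRs' amounts account for this was not tested.

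Other families with a common seed showed smaller gaps. miR-103 and miR-107, which differ at 1 of 23 positions and lie in introns of Pank genes, stood at 13.38 and 12.88, and their arrays did not overlap. miR-125b-5p at 13.27 was above miR-125a-5p at 11.70. miR-99b had 12.06, miR-99a 11.73 and miR-100 10.07. In the miR-181 group, miR-181a had 12.76, miR-181b 11.71 and miR-181c 8.04. In the miR-17 family, miR-17 (11.51) and miR-93 (11.38) led. miR-20a and miR-106b overlapped at 10.34 and 10.30, and miR-106a (8.72) and miR-20b (7.26), both of the X-linked cluster, were the lowest of this family.

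**Figure D3:**
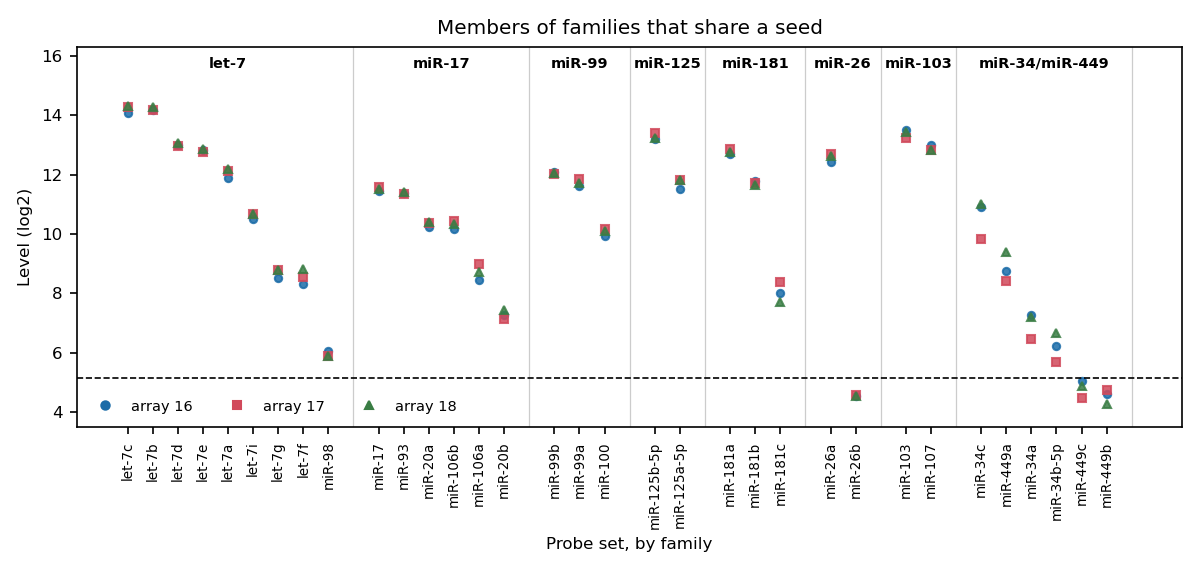
Level (log2, vertical axis) of the members of 8 families that share a seed, 1 column per probe set, with a point for each untreated array and the highest mean of the other-tissue miRs as a dashed line. In the let-7 family the means run from 14.22 for let-7c to 5.94 for miR-98, and of the members shown the 3 arrays lie furthest apart for miR-34c (range 1.18).

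Members that come from the same primary transcript can be compared by position. On chromosome 17, miR-99b, let-7e and miR-125a lie within chr17:17830194-17830840 (plus strand), and stood at 12.06, 12.82 and 11.70. On chromosome 13, let-7d, let-7f and let-7a lie within chr13:48536078-48538260 (minus strand), and stood at 13.02, 8.56 and 12.07. let-7f and miR-98 also lie together within chrX:151912353-151913250 (plus strand), and these were the lowest let-7 members. By the RefSeq positions found, let-7f, let-7c, miR-103 and miR-125b-5p each have a further copy elsewhere with the same mature sequence. Copies absent from those positions, also of the other members, would be missed. The array cannot tell copies apart.

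Of the 20 miRs listed as enriched in neurons or neural tissue, 18 were above the low end and 7 were among the highest 50, against 305 and 50 of all 722. miR-124, miR-138, miR-433 (11.78), miR-149 (11.58), miR-382 (11.27), the activity-regulated miR-132 (10.94) and miR-128 (10.74) were those 7. miR-134, which limits spine size, had 9.64 and miR-212, which shares a hairpin cluster with miR-132, had 8.65. miR-9, an abundant miR of neural progenitors and neurons, gave 7.30, 7.27 and 7.22, rank 185. miR-7b (4.31) and miR-136 (4.15) were the 2 below the low end.

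Glial and vascular miRs were spread over the scale. Of 11 miRs listed as astroglial or abundant in glia, 9 were above the low end, against 305 of all 722. The 9 include miR-449a and miR-143, which were also listed for multiciliated cells and for vessel walls. Among the highest 50 were 5 of the 11: miR-181a, miR-26a, miR-24, miR-23b and miR-181b. miR-29a, which rises late in brain maturation, had 7.86, whereas its relatives miR-29b (4.42) and miR-29c (5.04) were below the low end. Among oligodendrocyte miRs, miR-219 (4.04) and miR-338-3p (4.07) were at the low end, with miR-338-5p at 5.64 and the widely expressed miR-23a at 10.67. On the mRNA arrays of the untreated pups numbered 16, 17 and 18, the myelin gene Mag stood at 10.07, 11.71 and 9.55, well above background on all 5 untreated arrays. Of the vessel wall miRs, miR-145 (10.32), miR-126-3p (10.04) and miR-143 (9.61) were high. miR-126-5p, from the other arm of the miR-126 hairpin, was at 3.93.

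Some microglial, leukocyte and red cell miRs stood at the low end and others above it. Of 8 haematopoietic and inflammatory miRs, 3 were above it, a share near that of all probe sets (305 of 722). These were miR-150 (7.21), miR-146a (6.28) and miR-146b (5.59). miR-223, miR-155, miR-142-5p, miR-142-3p and miR-21 lay between 4.42 and 4.07. The microglial gene Csf1r stood at 14.30, 14.51 and 14.23 on the mRNA arrays of the same numbers. Of 4 measured red cell miRs, 2 were above the low end: miR-16, which is also made by most other cells, at 11.97 and miR-486 at 7.97. The more specific miR-451 was at 5.11 and miR-144 at 3.99. In the list of miR-17-92 and its paralogs, 10 of 13 were above the low end and miR-17 and miR-93 were among the highest 50. All 9 miRs listed for meninges and mesenchyme were above it, from miR-199a-5p at 5.71 to miR-145 at 10.32, with a median of 7.06.

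The miRs of hindbrain, epithelia, sensory organs and striated muscle were at the low end, as set by the mean of miR-217. None of the 5 Hox cluster miRs of hindbrain and spinal cord was above it, and the highest was miR-10b at 4.73. The same held for the 5 miRs of the miR-200 family, known from olfactory and other epithelia (highest miR-200c, 4.74), the 3 of the miR-183 cluster, known from sensory organs (highest miR-182, 4.70), and 7 striated muscle miRs (highest miR-206, 4.80). Of the muscle miRs, miR-208a and miR-208b also belong to the other-tissue list that marks the low end, so they could not lie above it. The hippocampal neuron genes Neurod6 (13.78, 13.73 and 13.79), Wfs1 (13.15, 13.34 and 13.07) and Prox1 (10.07, 9.92 and 10.05) were well above background on the mRNA arrays numbered 16, 17 and 18. So were all 3 genes listed for hypothalamus and thalamus, among them the neuropeptide genes Avp (8.18, 7.06 and 6.32) and Trh (7.62, 8.32 and 7.23).

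The chromosome 12 imprinted cluster between Dlk1 and Dio3, expressed from the maternal chromosome and strong in brain, contributed many of the detected miRs. Through their RefSeq positions, chr12:109544588-109747949, 80 of the 722 probe sets were assigned to it. Of these, 51 (63.7%) were above the low end, against 254 of the other 642 (39.6%). Their median level was 6.65, against 4.50 for the others. It held 8 of the highest 50. Besides miR-127 (12.55), miR-487b (12.01), miR-541 (11.95), miR-433 (11.78) and miR-382, these were miR-379 (10.88), miR-370 (10.76) and miR-770-3p (10.73), the last 3 being named after their values were seen. No test of this difference was made.

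Of the 121 probe sets whose name ends in star, the older mark for the less used arm, 39 were above the low end, and their median was 4.45. None was among the highest 50 and 4 were among the highest 100. In 80 pairs of a miR and its star with at least 1 above the low end, the unstarred probe set was higher on all 3 arrays in 69, and the median gap was 3.79. miR-124-star, for example, had 7.56 against 14.27 for miR-124, and let-7b-star had 5.88 against 14.21 for let-7b. The star probe set was higher on all 3 arrays in 10 pairs. The pairs named next were chosen after their values were seen. miR-140-star had 10.22, 9.93 and 10.10 against a mean of 5.85 for miR-140. miR-330-star had a mean of 9.23 against 6.41. miR-9-star, which some count as a main product of the miR-9 hairpin, stood at 8.92 ± 0.03 against 7.26 ± 0.04 for miR-9.

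The 3 arrays were alike at most probe sets. With 1 array per pup, spread between pups and spread between arrays cannot be told apart. The median SD over the arrays was 0.12, and the median range was 0.23. Between pairs of arrays, Pearson's r across the 722 probe sets was 0.9938 to 0.9954, and Spearman's rho among the 305 above the low end was 0.984 to 0.990. These correlations are across probe sets of jointly normalized arrays and describe the arrays only. Any 2 arrays shared 46 or 47 of their 50 highest probe sets. The range reached more than 1.5-fold (0.585) at 59 probe sets, of which 35 were above the low end, and more than 2-fold at 4. By level, the median SD was 0.10 below 5, 0.19 from 5 to 6, 0.17 from 6 to 8, 0.15 from 8 to 10, 0.10 from 10 to 12 and 0.09 above 12.

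The steadiest of the 100 highest probe sets was miR-149, at 11.59, 11.58 and 11.56. miR-191, in an intron of Dalrd3 and often used as a reference miR, followed at 12.27, 12.22 and 12.22. The ranges of miR-187, miR-151-5p, miR-672, miR-22, miR-93, miR-99b, miR-92b and let-7e were between 0.06 and 0.09.

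To ask whether any miR varied more between arrays than its level would give, each probe set's variance was set against the trend of variance with level over all 722. This was an F test on 2 and 4.28 degrees of freedom. At an adjusted p under 0.05 (limma's prior trend, Benjamini-Hochberg), 0 of 722 (0%) were called. At an unadjusted p under 0.05 there were 14 (1.94%). The smallest adjusted p was 0.935. With 3 arrays a single probe set would be called only from an SD of 13.6 times that of the trend, so that a probe set not called cannot be described as steady. miR-34c ranked first, with an SD of 0.65 where the trend gave 0.12 (F test with limma's prior, unadjusted p = 0.0034, adjusted p = 0.935), and with each array centred on its median it passed, together with miR-1901, a probe set at the low end (both adjusted p = 0.0317, limma).

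**Figure D4:**
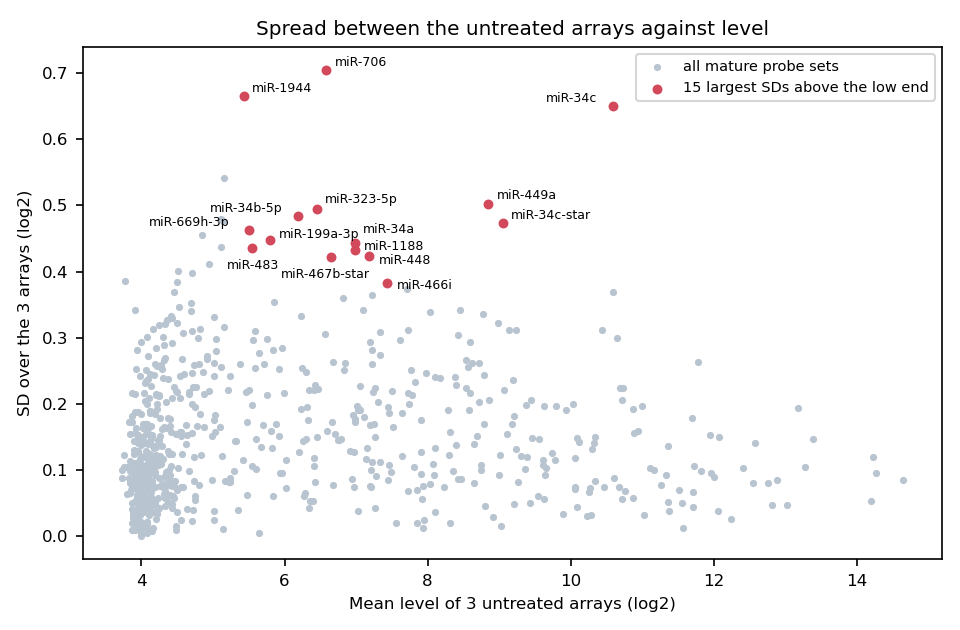
SD over the 3 untreated arrays (log2, vertical axis) against the mean level (log2, horizontal axis), 1 point per mature probe set, with the 15 largest SDs among probe sets above the other-tissue miRs in red. miR-706, miR-1944 and miR-34c lie highest, and miR-34c stands apart from all other probe sets with a level above 10.

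Among the 15 largest SDs above the low end, 5 belonged to the miR-34/449 family, which drives the formation of multiciliated cells such as ependyma and choroid plexus epithelium. The family had 6 of the 305 probe sets above the low end. The 5 are not independent, since miR-34c and miR-34c-star come from 1 hairpin. miR-34c had 10.91 on array 16, 9.84 on array 17 and 11.01 on array 18. Its partner arm miR-34c-star had 9.28, 8.51 and 9.37. miR-449a, from an intron of Cdc20b, had 8.74, 8.41 and 9.40. On all 3 the lowest value was that of array 17. miR-34a, also known from p53 responses, had 7.27, 6.47 and 7.20, and miR-34b-5p had 6.22, 5.68 and 6.65. miR-34b-3p stood at 7.47, 7.01 and 7.51. Array 17 was the lowest at 7 of the 8 members measured, the exception being miR-449b, which was below the low end at 4.54. Over all 722 probe sets array 17 was the lowest at 274. It was also the lowest at 21 of the 35 above the low end with a range over 1.5-fold, which include members of this family. The median deviation of the 8 from their means was 0.18, -0.47 and 0.27 on arrays 16, 17 and 18, where that of all probe sets was within 0.02 of 0.

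miRs from introns of genes that choroid plexus expresses strongly moved partly the same way. miR-448, from an intron of the serotonin receptor gene Htr2c, had 7.16, 6.76 and 7.61. From the same gene, miR-764-5p had 5.663, 5.311 and 5.804 and miR-764-3p had 5.27, 4.80 and 5.40. All 3 were lowest on array 17 and highest on array 18. miR-204, from an intron of the channel gene Trpm3 and abundant in choroid plexus, had 6.99, 7.06 and 7.53, so that array 18 was again highest but array 16 was lowest. miR-211, which differs from miR-204 at 1 of 22 positions, was at the low end at 4.39 ± 0.06 (SD, n = 3).

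The mRNA arrays of untreated pups with the numbers 16, 17 and 18 gave another order. The choroid plexus gene Clic6 stood at 13.58, 13.47 and 12.48 (log2), the water channel gene Aqp1 at 12.50, 12.33 and 11.24 and Kl at 10.82, 11.02 and 10.27. All 5 choroid plexus genes, with Folr1 and Ttr, were lowest on mRNA array 18. So were 3 of 3 genes listed for hypothalamus and thalamus and 2 of 3 for oligodendrocytes. The same held for 2 of 2 microglial and 2 of 2 endothelial genes. Array 18 was thus often lowest outside choroid plexus as well. On array 17, in contrast, 3 of 3 blood, 3 of 3 meningeal and 2 of 3 hippocampal neuron genes were lowest. The host genes Trpm3 (10.71, 10.52 and 9.96) and Htr2c (12.76, 12.95 and 12.34) were also lowest on array 18. Foxj1, the regulator of motile cilia, had 11.22, 11.11 and 10.14, and Tmem212 and Ccdc153 were likewise lowest on mRNA array 18. These 3 ciliated cell genes were added after the miR values were seen. So miR array 17 was lowest at 7 of the 8 miR-34/449 probe sets and at the 3 Htr2c intron miRs. miR-204 was lowest on miR array 16. Trpm3, Htr2c and the choroid plexus and ciliated cell mRNAs were lowest on mRNA array 18.

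The red cell markers differed in order as well. Hbb-b1 stood at 16.06, 14.75 and 16.17 on the mRNA arrays numbered 16, 17 and 18, and Hba-a1 and Alas2 were also lowest on array 17. miR-451 had 4.64, 5.09 and 5.59 on the miR arrays and miR-486 had 7.70, 8.17 and 8.06, both lowest on array 16. The mean of miR-451, 5.11, was below the low end. Of the 4 red cell miRs measured, 3 were lowest on miR array 16 and 1 on miR array 18. The labels do not say that a miR array and an mRNA array of the same number came from the same RNA, and with 3 numbers no relation between them could be tested.

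**Figure D5:**
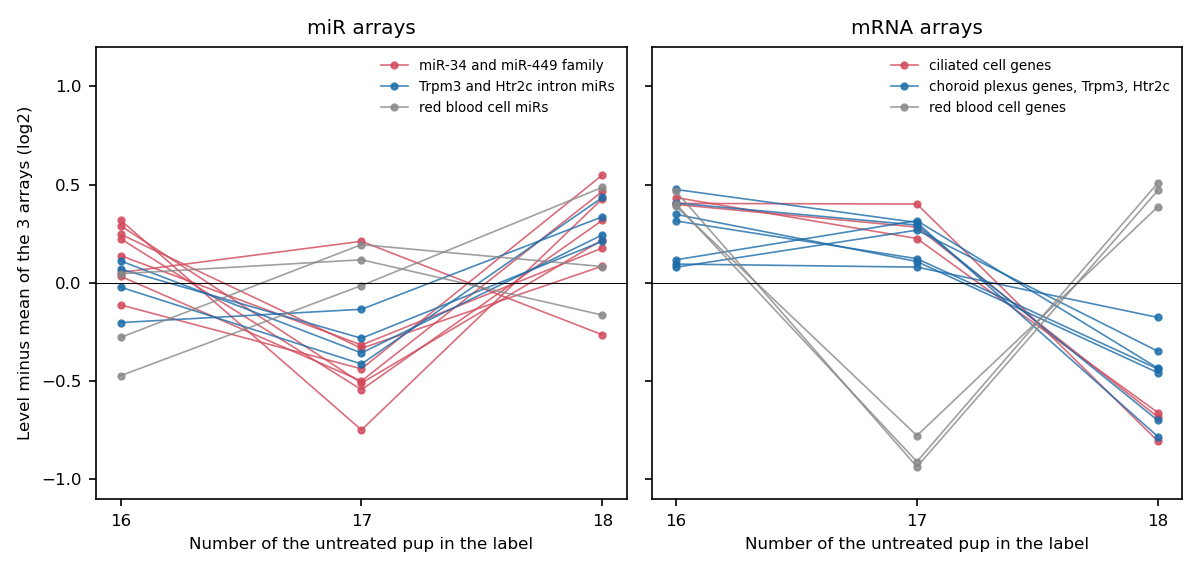
Level minus the mean of the 3 arrays (log2, vertical axis) for miRs (left) and mRNAs (right) of untreated pups by the number in the label (horizontal axis), with a thin line joining the values of 1 probe set and no order implied between pups. The miR-34/449 family (red) is lowest at number 17 at 7 of 8 members, and the ciliated cell and choroid plexus mRNAs (red and blue) are all lowest at number 18. Genes of several other lists, not shown, were also lowest at number 18.

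The chromosome 12 cluster showed a smaller but broad difference between arrays. miR-433 had 12.08, 11.58 and 11.68, miR-541 had 12.12, 11.84 and 11.87 and miR-379 had 11.10, 10.80 and 10.74. The first value, that of array 16, was the highest in each. miR-770-5p, chosen after its values were seen, had 11.02, 10.40 and 10.37. Of the 51 members above the low end, 33 (64.7%) were highest on array 16 and 32 (62.7%) were lowest on array 18, against 44.9% and 28.0% of the 254 other probe sets above it. The median deviation of the 51 was 0.10 on array 16 and -0.10 on array 18. With each array centred on its median, 33 were highest on array 16 and 39 lowest on array 18, against 121 and 109 of the 254 others. After quantile normalization on top, the counts were 29 and 25, against 96 and 56. On the mRNA arrays with the same numbers, the cluster's non-coding transcripts Meg3 (16.54, 16.67 and 16.63) and Mirg (12.81, 13.01 and 12.83) were lowest on array 16. So were 5 of the 8 host genes listed, Meg3 and Mirg among them, and this order was thus not particular to the cluster. The difference of the cluster's miRs between arrays was not tested.

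The remaining large SDs were those of probe sets with less known roles. miR-706 had 5.768, 7.001 and 6.974 and miR-1944 had 4.76, 6.09 and 5.45, both lowest on array 16. Array 16 was also the lowest for miR-199a-3p, a mesenchymal miR, at 5.29, 6.03 and 6.09. miR-323-5p and miR-1188, both of the chromosome 12 cluster, had 6.93, 5.94 and 6.47 and 7.48, 6.68 and 6.81. miR-483, from an intron of Igf2, had 5.96, 5.09 and 5.59. These 3 were highest on array 16 and lowest on array 17, as were miR-467b-star and miR-466i, while miR-669h-3p was lowest on array 17 and highest on array 18. Of the 35 probe sets above the low end with a range over 1.5-fold, array 17 was the lowest at 21, and arrays 16 and 18 at 7 each. Over all 305 above the low end, array 17 was the lowest at 121, array 18 at 103 and array 16 at 81.

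The order of signals was nearly the same on the 6 treated arrays. Their 10 highest probe sets by mean were the same 10 as in the untreated pups, and 28 of the highest 30, 46 of the highest 50 and 93 of the highest 100 were shared. A single treated array shared 43 to 48 of the highest 50. Spearman's rho of the 2 means among the 305 probe sets above the low end was 0.985. The arrays were normalized together, so this describes the table and is no test. The median SD within a treated group was 0.16 in MS2 and 0.13 in MS5, against 0.12 in the untreated pups. For miR-34c the SD was 0.25 within MS2 and 1.31 within MS5, for miR-449a it was 0.90 and 1.01 and for miR-448 0.35 and 1.44, against 0.65, 0.50 and 0.42 in the untreated pups. miR-706 had 0.47 and 0.97. miR-466i, in contrast, varied by 0.07 and 0.17 within the treated groups, against 0.38 in the untreated.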

How the data were processed

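For miRs the authors deposited log2 values made by robust multi-array averaging (RMA), in which probes are background corrected and quantile normalized, here over 9 arrays, and each probe set is fitted by median polish. For mRNAs the authors deposited scanner intensity per spot, with a flag (other) for spots well above background, and a log2 table. From the intensity, background was adjusted with normexp (offset 50), 15 arrays were quantile normalized, log2 was taken and spots of a probe were averaged. A gene was represented by its probe with the highest mean, and 2 listed genes had none.

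Means, SDs and ranks were computed per probe set. Variances were tested against limma's trended, robust prior (R 4.3.3, limma 3.58.1), also on simulated data. Named were the 30 highest means, the 15 largest SDs above the other-tissue list, the 10 smallest ranges among the highest 100, members of 17 lists and seed relatives. 10 listed names were not on the array. Members and lists were chosen with earlier results of these data known. Sequences were matched by name, 203 of 722 directly. Precision was limited by 3 arrays. The scanner files of the miR arrays were not analysed here.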

Additional observations from a re-analysis of the deposited data

How the results depend on the processing

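No paired analysis was possible because no groups were compared: the untreated miR and mRNA arrays share numbers but measure different molecules. The variance test called 0 probe sets under 8 of 9 alternatives (hairpins added, no trend, not robust, only means above the median, quantile normalization on top, each array left out; 10 to 25 at an unadjusted p under 0.05) and 2 with each array centred on its median, miR-34c and miR-1901, where the prior had 18.67 degrees of freedom in place of 4.28. The cause was not tested. Of the highest 50, 49 were shared when the median, the lowest array or quantile normalization on top was used, and 48 to 50 without 1 array. The 305 probe sets above the low end became 377 with the 95th percentile of the other-tissue list, 328 with that of the hairpins, 558 with the list's median, which by construction lies within the low end, and 304 to 311 without 1 array. The median SD of 0.12 was 0.13 after median centring, 0.12 after quantile normalization on top and 0.10 to 0.11 without 1 array. Quantile normalization on top moved the levels of the 175 probe sets named by rule by at most 0.05, less than the SD of each, and leaving out 1 array moved them by at most 0.27 to 0.41. Median centring cannot move a mean. Array 17 was lowest at 7 of 8 miR-34/449 probe sets under each scaling. The authors' own mRNA table gave 34 of 35 genes the same mean within 0.001, so it was hardly another processing. All 5 choroid plexus genes were lowest on mRNA array 18 there too. Signal near the low end and 3 arrays limit what can be seen.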

Other observations

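Of the hairpin probe sets, those of the miR-124 precursors were the highest, at 13.97 ± 0.11 for mir-124-3, 13.97 ± 0.10 for mir-124-1 and 13.92 ± 0.05 for mir-124-2 (log2, SD, n = 3), about as high as mature miR-124 at 14.27. Their names mark them as sharing probes. The hairpin probe sets of mir-465c followed at 10.25 and 10.20, whereas the mature miR-465c-5p and miR-465c-3p stood at the low end, at 4.02 and 3.84. The hairpin of mir-1944 stood at 8.62 ± 0.05, above the mature miR-1944 at 5.43 ± 0.67, and the hairpin of mir-204 at 6.53 against 7.19 for miR-204. The hairpin names of mir-465c (ending in _s) and mir-204 (ending in _x) also mark probes that may not be unique to them.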
